A study of Mus musculus with 2 samples.

Results

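Endothelial cells that carry transcripts of Slc38a5 or Car5a were described here in brains of E4 and E3 mice. They numbered 663 of 2179 endothelial cells, out of 25287 cell barcodes in the whole data set. The cells were chosen by measured values. A barcode needed 1000 to 50000 unique molecular identifiers (UMIs, each counting 1 captured transcript), at most 30% mitochondrial UMIs, and at least 5 UMIs of Cldn5, Flt1, Ly6c1 and Pecam1 together. It also needed fewer than 5 UMIs of C1qa, C1qb and C1qc, fewer than 8 of Aldoc and Gja1, and fewer than 3 of Vtn and Kcnj8. Within these endothelial cells, members had at least 2 UMIs of Slc38a5 and Car5a summed, and no fewer than of the arterial genes Gkn3, Bmx and Sema3g.

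The study asked how human APOE4 alters glycolysis and oxidative phosphorylation in brain cells. It profiled female knock-in mice aged 11 to 12 months whose mouse Apoe was replaced by human APOE, with the genotype E4/E4 (labelled APOE4) in the E4 library and E3/E3 (labelled APOE3) in the E3 library. After perfusion, right hemispheres of 3 mice per genotype, without brainstem and cerebellum, were pooled and dissociated with warmed enzymes. Each pool gave 1 library of droplet-based single-cell RNA sequencing.

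Both genotypes share the knock-in itself, and no mouse with its own Apoe was compared. With 1 library per genotype there was no replicate check of any difference between E4 and E3, so no p-value is given. Genotype, pool, library preparation and software version cannot be told apart. The E4 library held 71625170 UMIs in 13802 barcodes and the E3 library 56415229 UMIs in 11485 barcodes. Mouse Apoe cannot check the labels because the allele is human. It had 36 UMIs in E4 members and 26 in E3 members.

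Blood vessels of the brain change their gene programme along their length, from arteries over capillaries to veins. Capillary endothelium forms most of the blood-brain barrier and carries its transporters, whereas venules and veins are the usual place where leukocytes attach and leave the blood. Slc38a5 encodes a glutamine transporter of the cell membrane, and Car5a encodes a mitochondrial carbonic anhydrase. On GRCm38, the build of the files, Slc38a5 lies on the plus strand of chromosome X from 8271133 to 8280179, and Car5a on the minus strand of chromosome 8 from 121916126 to 121944904. Cldn5 encodes a tight junction protein found along the whole vessel tree.

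Members made up a like share of endothelial cells in both libraries. There were 377 members among 1283 E4 endothelial cells, or 29.4% (exact binomial 95% interval 26.9% to 32.0%). There were 286 among 896 E3 endothelial cells, or 31.9% (28.9% to 35.1%). The intervals overlap. These and all later intervals cover counting error only.

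Members were deeper than the cells they were set against. Their median was 5988 UMIs in E4 and 5575 in E3, against 3332.5 in E4 and 3420 in E3 for the other 906 and 610 endothelial cells. A deeper cell reaches 2 marker UMIs more easily, so the share depends on depth. When each cell was thinned at random to 2000 UMIs before the rule was applied, 11.2% of E4 and 12.1% of E3 endothelial cells were members.

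Expression was then summed over the cells of a group and scaled to a common total for each group, as CPM. As a description of what the rule used, Slc38a5 stood at 245 CPM in E4 and 251 CPM in E3 members, against 33.6 and 33.3 CPM in the other endothelial cells. Car5a stood at 269 CPM in E4 and 274 CPM in E3 members, against 53.4 and 58.9 CPM. Cldn5 stood at 5970 CPM in E4 and 6358 CPM in E3 members, against 5385 and 5693 CPM in the other endothelial cells. Microglial cells of the same libraries, which should lack these genes, had 0.264 CPM of Slc38a5 in E4 and 0.372 CPM in E3, and 14.979 and 13.3 CPM of Cldn5.

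The background in single cells was low at equal depth. With each cell thinned to 1000 UMIs, a Slc38a5 UMI was seen in 24.9% of E4 and 24.8% of E3 members (67.6% and 70.6% before thinning), in 4.3% of other endothelial cells of each library, and in 1 of 4103 E4 and 1 of 3352 E3 microglial cells. Cldn5 was seen in 100% of thinned E4 and 99.0% of thinned E3 members, against 1.8% and 1.5% of microglial cells. The median microglial cell held 4275 UMIs in E4 and 3704 in E3.

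The marker sum of a member was usually small. Its median was 3 UMIs in both libraries, and its highest value was 19 in E4 and 14 in E3. Cells just inside the threshold, with a sum of 2, numbered 145 in E4 and 115 in E3. Cells just outside it, with a sum of 1, numbered 247 in E4 and 172 in E3, where cells with more UMIs of the arterial genes than of the markers were set aside.

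Cells around the threshold differed little in a list of 15 vein genes, which contains neither marker. The list summed to 354 CPM at 2 marker UMIs and 321 CPM at 1 in E4, and to 237 and 235 CPM in E3. It was far higher at 5 or more marker UMIs, with 853 CPM in E4 and 821 CPM in E3. A list of 11 capillary genes stayed between 15011 and 16010 CPM across the member bins in E4 and between 15138 and 15638 CPM in E3. Median depth also climbed across the bins, to 10370.5 UMIs in E4 and 9041 in E3 at 5 or more marker UMIs, and its part in the vein values was not tested.

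**Figure D1:**
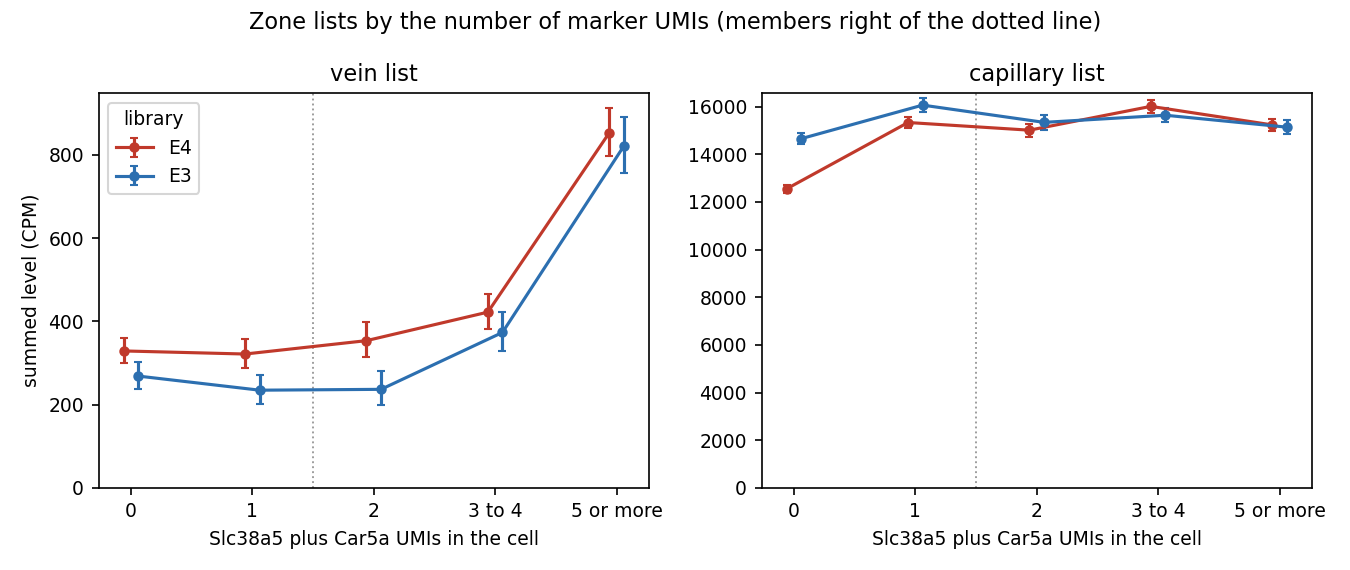
Summed level (CPM) of the vein list (left) and the capillary list (right) in endothelial cells binned by their Slc38a5 plus Car5a UMIs, for E4 and E3, with exact 95% intervals that cover counting error. Members lie right of the dotted line; the vein list reaches 853 CPM in E4 and 821 CPM in E3 in the highest bin, while cells with 2 marker UMIs lie at 354 and 237 CPM, near the cells outside.

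The members fell into 3 sets by the marker they carried. In E4, 85 members had Slc38a5 alone (22.5%), 170 had both genes (45.1%) and 122 had Car5a alone (32.4%). In E3, 63 had Slc38a5 alone (22.03%), 139 had both (48.6%) and 84 had Car5a alone (29.4%). The shares of each set overlapped between the libraries within their intervals. A cell with a single marker may carry the other below detection, and the cells with both genes were the deepest, with medians of 7151 UMIs in E4 and 7121 in E3.

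The label of a venous and capillary side was checked against vein, capillary and artery genes that the rule did not use. It held in part. Members with Slc38a5 alone were high in vein genes, and members with Car5a alone were not. The vein list summed to 1090 CPM in E4 and 797 CPM in E3 members with Slc38a5 alone, against 213 and 174 CPM in those with Car5a alone. Members with both genes lay between, at 547 CPM in E4 and 527 CPM in E3. Endothelial cells with at most 1 UMI of the markers and at most 1 of the arterial genes were called cells without zone markers. Their vein list summed to 309.7 CPM in E4 and 249 CPM in E3, above the sums with Car5a alone. The median cell had the opposite order. It had 0 CPM without zone markers in both libraries, against 107.5 CPM in E4 and 123.6 CPM in E3 with Car5a alone. Cells without zone markers were shallower, with medians of 3089.5 and 3225 UMIs against 4538 and 4374.5 UMIs. The part of depth was not tested.

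With all UMIs counted, the difference between the sets was of like size in both libraries. Members with Slc38a5 alone were higher than members with Car5a alone by 2.36 on the log2 scale in E4 (95% interval 2.10 to 2.61) and by 2.19 in E3 (1.83 to 2.57). One deep cell per library carried much of the list, 226 of 599 vein UMIs in E4 and 92 of 289 in E3. Without those cells the difference was 1.72 in E4 and 1.73 in E3. It was 2.59 in E4 and 2.22 in E3 without Ctsc, which microglial cells also hold at 405 and 384 CPM. With every cell thinned to 1000 UMIs, the list stood at 906 CPM in E4 and 476 CPM in E3 with Slc38a5 alone, against 131 and 238 CPM with Car5a alone. The interval of the thinned log2 difference was 1.998 to 3.66 in E4 and 0.14 to 1.89 in E3.

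Artery genes ran the other way. The artery list, without the arterial genes of the rule, summed to 683 CPM in E4 and 549 CPM in E3 members with Slc38a5 alone, against 1168 and 1062 CPM with Car5a alone. The capillary list was near level, at 14607 CPM in E4 and 15063 CPM in E3 with Slc38a5 alone, against 16304 and 15749 CPM with Car5a alone. Arterial endothelial cells, with at least 2 UMIs of Gkn3, Bmx and Sema3g and more of them than of the markers, had 3926 CPM of the artery list in E4 and 5727 CPM in E3. Members with Car5a alone were thus far below the arterial cells and close to the 986 and 1164 CPM of cells without zone markers.

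**Figure D2:**
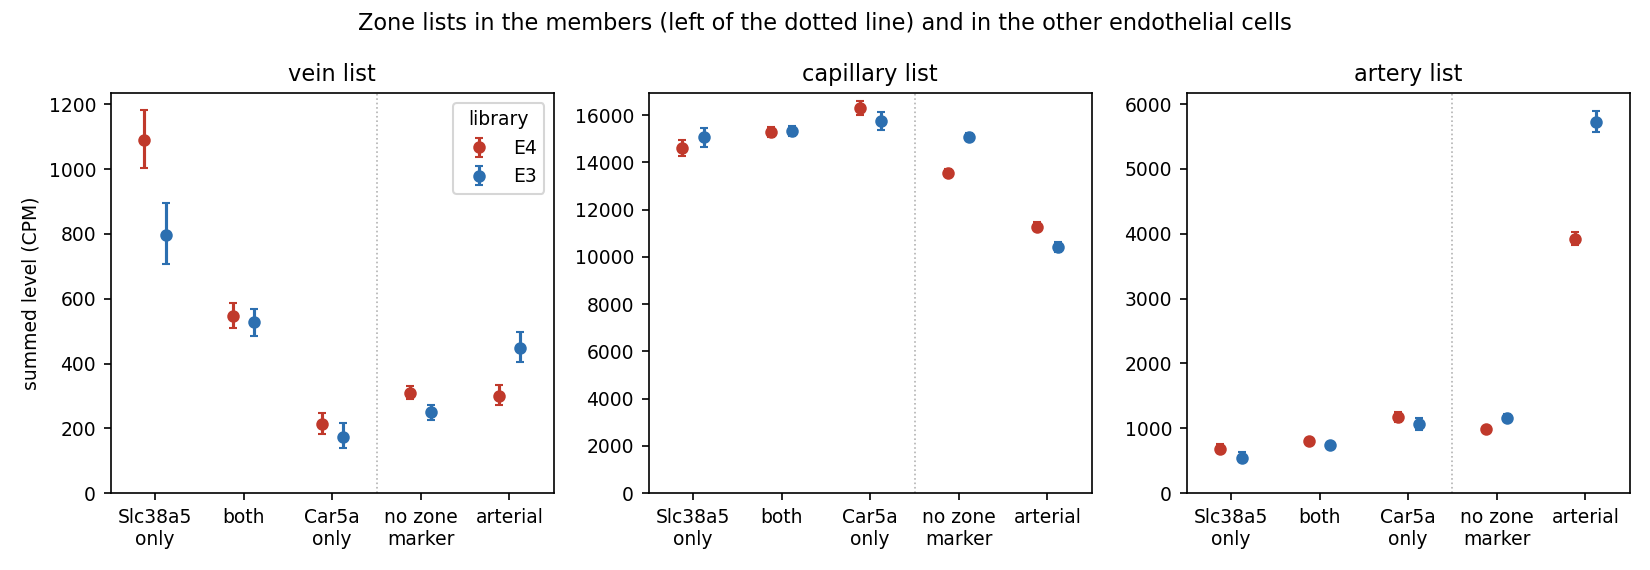
Summed level (CPM) of the vein, capillary and artery lists in the 3 sets of members and in the other endothelial cells, for E4 and E3, with exact 95% intervals that cover counting error. The vein list falls from the members with Slc38a5 alone (1090 and 797 CPM) over those with both genes to those with Car5a alone (213 and 174 CPM), and the artery list is far highest in arterial cells.

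Among 2840 genes with at least 50 UMIs in each library, 30 (1.06%) were at least 1.5-fold higher with Slc38a5 alone in both libraries and 24 (0.845%) at least 1.5-fold higher with Car5a alone. Of the vein list, 2 genes had that many UMIs, and both (Vwf and Ctsc) were higher with Slc38a5 alone. Vwf, the clotting factor stored by endothelium, had 322 CPM in E4 and 223 CPM in E3 members with Slc38a5 alone, against 60.5 and 46.3 CPM with Car5a alone. Without the deep cell of each library, it was 204 CPM in E4 and 135 CPM in E3 with Slc38a5 alone. Thinned to 1000 UMIs, Vwf had 376 CPM in E4 and 111 CPM in E3, against 49.2 and 83.3 CPM with Car5a alone. The interval of that thinned difference included 0 in E3, at -1.33 to 2.16. Vwf was not confined to these members. At 1000 UMIs it was seen in 23.5% of E4 and 9.5% of E3 members with Slc38a5 alone. In arterial cells it was seen in 10.2% in E4 and 17.1% in E3. Ctsc, a lysosomal protease, had 129 CPM in E4 and 149 CPM in E3, against 53.9 and 35.3 CPM with Car5a alone.

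Rarer vein genes had the same order when all UMIs were counted. Nr2f2, the transcription factor that marks venous fate, had 96.5 CPM in E4 and 57.9 CPM in E3 members with Slc38a5 alone. With Car5a alone it had 11.8 CPM in E4 and no UMI in E3, where the difference is at least 8.76-fold against a floor of 3 UMIs. Il1r1, the receptor for interleukin 1, had 87.4 CPM in E4 and 96.5 CPM in E3, against 5.26 and 13.2 CPM. The leukocyte adhesion gene Vcam1 had 60.1 CPM in E4 and 66.2 CPM in E3, against 5.26 and 4.41 CPM, and Icam1 had 89.2 and 33.1 CPM, against 3.95 and 4.41 CPM. Thinned to 1000 UMIs, Icam1 in E4 had 58.8 CPM with Slc38a5 alone and no UMI with Car5a alone. In E3 it had no UMI with Slc38a5 alone and 11.9 CPM with Car5a alone. Icam1 was also seen in 8.6% of E4 and 7.5% of E3 microglial cells at that depth. Vcam1 was then seen in 2.4% of E4 and 1.6% of E3 members with Slc38a5 alone. Arterial cells had it more often, at 4.5% in E4 and 6.0% in E3.

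Wnt5a, which encodes a secreted Wnt ligand, and the extracellular matrix enzyme Tgm2 were also higher with Slc38a5 alone. Wnt5a had 76.5 CPM in E4 and 96.5 CPM in E3, against 5.26 and 15.4 CPM with Car5a alone. Tgm2 had 258 CPM in E4 and 199 CPM in E3, against 109 and 106 CPM. Other genes of this direction were Flrt2, Fmo2, Tmsb10, Ndnf, Adcy4, Gas6 and Nampt. The sum of the microglia list was 144 CPM in E4 and 287 CPM in E3 members with Slc38a5 alone, against 158 and 187 CPM with Car5a alone. It was thus higher with Slc38a5 alone in E3 and lower in E4, and its part in the Ctsc and Icam1 values was not tested. The vein list itself, which holds Ctsc and Icam1, summed to 583 CPM in E4 and 545 CPM in E3 microglial cells.

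Genes higher with Car5a alone included Cxcl12, Cdkn1c, Plk2, Gstm7, Apold1, Ccnd2, Tgfb2 and Rgs5. Rgs5 is also a pericyte gene, and it held most UMIs of the pericyte and smooth muscle list, which summed to 702 CPM in E4 and 679 CPM in E3 members with Car5a alone, against 448 and 312 CPM with Slc38a5 alone. The part of pericyte transcripts in the Rgs5 values was not tested. Cxcl12, a chemokine, had 3613 CPM in E4 and 3222 CPM in E3 members with Car5a alone, against 1969 and 1556 CPM with Slc38a5 alone. The Notch target Hey1 had 76.3 CPM in E4 and 70.5 CPM in E3 with Car5a alone, against 10.9 and 13.8 CPM. Unc5b, a netrin receptor of arterial endothelium, had 78.9 CPM in E4 and 44.1 CPM in E3, against 20.02 and 11.0 CPM. Hey1 and Unc5b were named for their list and lay under the limit of 50 UMIs in E3. Cdkn1c, an inhibitor of the cell cycle, had 249 CPM in E4 and 229 CPM in E3 with Car5a alone, against 102 and 49.6 CPM.

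Capillary genes did not all lie on 1 side. Mfsd2a, the lipid carrier of barrier endothelium, had 326 CPM in E4 and 361 CPM in E3 members with Car5a alone, against 215 and 284 CPM with Slc38a5 alone. Car4, the carbonic anhydrase on the vessel surface, lay the other way, with 602 CPM in E4 and 582 CPM in E3 with Car5a alone, against 881 and 1073 CPM.

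**Figure D3:**
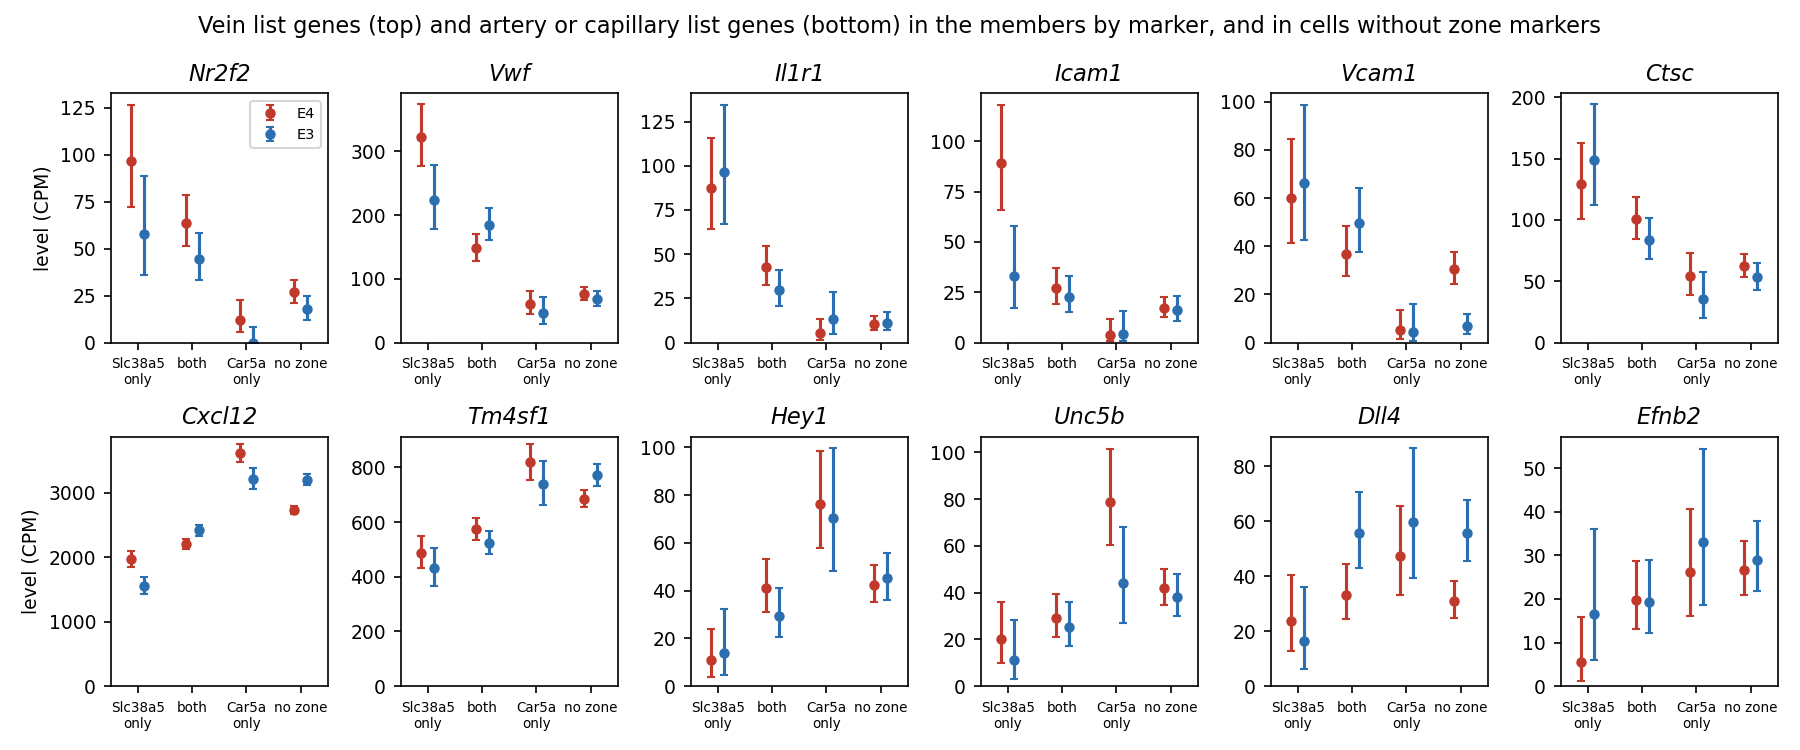
Level (CPM) of 6 vein list genes (top) and of 6 capillary or artery list genes (bottom) in members with Slc38a5 alone, with both genes and with Car5a alone, and in cells without zone markers, for E4 and E3, with exact 95% intervals that cover counting error. Vwf stands at 322 and 223 CPM with Slc38a5 alone and at 60.5 and 46.3 CPM with Car5a alone, and Cxcl12 has the opposite order.

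Lrg1 and Ackr1 of the vein list were each seen in at most 1 member per library. The 1 E4 member with Lrg1 had 48 Lrg1 UMIs, together with all 27 Ackr1 UMIs of the E4 members, 69 of Vwf, 18 of Icam1 and 15 of Slc38a5 among its 19010 UMIs. Ackr1 encodes a chemokine receptor of venules. The 1 E3 member with Lrg1 had 11 Lrg1, 35 Vwf and 10 Slc38a5 UMIs and no Ackr1. Neither cell had a Car5a UMI.

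Members as a whole were set against the other endothelial cells next, with the genes of the rule left out. Of 8047 genes, 52 (0.646%) were at least 1.5-fold higher in members in both libraries and 151 (1.88%) at least 1.5-fold lower. The median log2 ratio over all genes was 0.04 in E4 and 0.03 in E3. Since members were chosen from these cells, the ratios are a description. Arterial cells made up 176 of the 906 other endothelial cells in E4 and 117 of the 610 in E3.

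Of the 52 genes, Wnt5a and Il1r1 were furthest above the other endothelial cells by the mean log2 ratio of both libraries. In E3 alone, Fxyd6 (2.74) and Trp53i11 (2.51) were further above. Wnt5a had 44.5 CPM in E4 and 41.9 CPM in E3 members, against 10.3 and 10.7 CPM (4.31-fold in E4, 3.90-fold in E3). Il1r1 had 41.1 CPM in E4 and 37.9 CPM in E3 members, against 10.3 and 10.0 CPM (3.99-fold in E4, 3.79-fold in E3). Wnt5a was seen in 48 E4 and 39 E3 members and Il1r1 in 54 and 38, so both were carried by a minority of the cells.

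Tmsb10, an actin-binding peptide, was the most abundant of the 15 highest genes. It had 1084 CPM in E4 and 1496 CPM in E3 members, against 530 and 710 CPM in the other endothelial cells. Net1, a guanine nucleotide exchange factor, had 389 CPM in E4 and 330 CPM in E3, against 210 and 162 CPM. Ndnf, a secreted protein, had 163 CPM in E4 and 216 CPM in E3, against 86.0 and 103 CPM. Nos2, the inducible nitric oxide synthase, had 27.6 CPM in E4 and 25.4 CPM in E3, against 12.7 and 13.7 CPM. Flrt2, Nsg1, Ncaph, Tbc1d30, Itga4, Rtp3 and Vstm2b complete the list with Fxyd6 and Trp53i11. For Fxyd6 and Trp53i11, 85.4% and 78.2% of the UMIs in E3 members came from 5 cells.

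**Figure D4:**
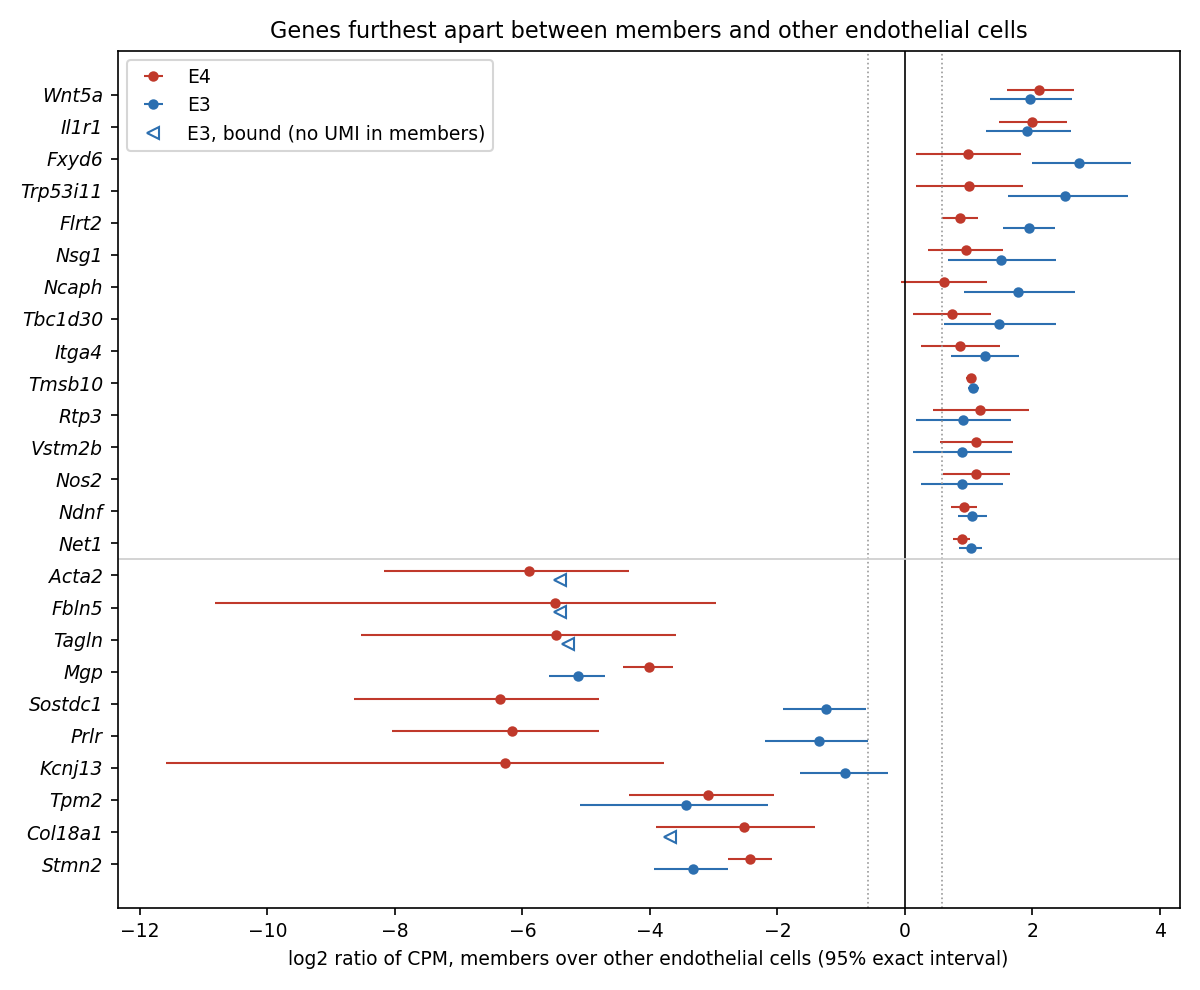
Log2 ratio of CPM, members over other endothelial cells of the same library, for the 15 highest and 10 lowest genes at least 1.5-fold apart in both libraries (dotted lines), with exact 95% intervals that cover counting error. Genes run by the mean of both libraries, with Wnt5a (2.11 in E4, 1.96 in E3) at the top, and open triangles are bounds for genes without a UMI in E3 members.

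The vein list was higher in members than in the other endothelial cells, a group that includes the arterial cells. Of its 8 measured genes, 6 were higher in both libraries and 4 passed the fold in both (Il1r1, Nrp2, Nr2f2 and Ctsc), against 0.646% of all genes. The median log2 ratio was 0.81 in E4 and 0.61 in E3. The list summed to 563 CPM in E4 and 496 CPM in E3 members, against 301 and 449 CPM in arterial cells. In E3 those intervals overlapped, at 466 to 528 CPM in members and 405 to 497 CPM in arterial cells. The median cell had 225 CPM in E3 members and 251 CPM in E3 arterial cells. In E4 the median cell had 242 CPM in members and 202 CPM in arterial cells. Nr2f2 had 55.8 CPM in E4 and 36.9 CPM in E3 members, against 24.2 and 22.97 CPM. Nrp2, a co-receptor for vascular growth factors, had 50.7 CPM in E4 and 51.4 CPM in E3 members, against 32.1 and 26.7 CPM in the other endothelial cells.

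Genes of the capillary barrier were modestly higher than in the other endothelial cells. The capillary list summed to 15426 CPM in E4 and 15371 CPM in E3 members. It was 13567 and 15066 CPM in cells without zone markers, and 11280 and 10409 CPM in arterial cells. In E3 the intervals of members and cells without zone markers overlapped. Thinned to 1000 UMIs, Car4 was seen in 48.0% of E4 and 53.8% of E3 members. It was seen in 42.3% and 40.0% of cells without zone markers, and in 10.2% and 7.7% of arterial cells. The capillary list had 11 measured genes with medians of 0.25 in E4 and 0.28 in E3, and Car4 was the only one past the fold, at 795 CPM in E4 and 829 CPM in E3 members against 469 and 496 CPM. Of 26 barrier transporters, 22 were higher in both libraries (medians 0.34 in E4 and 0.25 in E3), with the nucleoside transporter gene Slc29a1 past the fold. The lactate carrier Slc16a1 had 349 CPM in E4 and 424 CPM in E3 members, against 239 and 267 CPM. The transferrin receptor gene Tfrc had 479 CPM in E4 and 482 CPM in E3, against 364 and 313 CPM. The lists of junction genes (medians 0.18 and 0.11) and of Wnt and beta-catenin signalling (0.22 and 0.16) held no gene past the fold. Its member Apcdd1, a Wnt target, had 481 CPM in E4 and 459 CPM in E3 members, against 337 and 303 CPM.

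The lower side held artery and smooth muscle genes and genes of other cells. Of 13 artery genes, 9 were at least 1.5-fold lower in both libraries, against 1.88% of all genes, a direction partly set by the rule. Mgp, a matrix protein of arteries, had 20.9 CPM in E4 and 22.95 CPM in E3 members, against 339 and 805 CPM in the other endothelial cells. Acta2 and Tagln, contractile genes of smooth muscle, had 3 and 2 UMIs in E4 members and none in E3 members. The E3 values are therefore bounds: Acta2 was at most 0.0236 and Tagln at most 0.0256 of the level in the other endothelial cells.

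Oligodendrocyte, choroid plexus and some pericyte and smooth muscle genes were lower in members than in the cells they were set against. All 5 measured oligodendrocyte genes, 4 of 5 choroid plexus genes and 3 of 6 pericyte and smooth muscle genes were past the fold, against 1.88% of all genes. None of the 7 microglia genes was. Other lists differed between the libraries. Haemoglobin genes summed to 1613 CPM in E4 members but 6558 CPM in E3 members, against 3242 and 3025 CPM in the other endothelial cells. The border macrophage list had 26 UMIs in E4 and 17 in E3 members, against 45 and 2 UMIs. Sox11, the 1 measured gene of neurons and neuroblasts, had a log2 ratio of -1.14 in E4 and 3.34 in E3. Sostdc1, Prlr and Kcnj13, genes of choroid plexus, had log2 ratios of -6.35, -6.17 and -6.28 in E4 but -1.24, -1.35 and -0.94 in E3. In E4, 10 other endothelial cells and no member held at least 50 UMIs of Ttr, while in E3 2 other endothelial cells and 4 members did. Of 22 immediate-early and stress genes, which rise during warm dissociation, 7 were past the fold on the lower side, against 1.88% of all genes. Their medians were -0.32 in E4 and -0.35 in E3. The part of these lists in the other differences was not tested.

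Because some cells held many transcripts of another type, the comparisons were repeated without them. Cells with at least 20 haemoglobin UMIs, 50 Ttr UMIs or 20 UMIs of the oligodendrocyte genes Mog, Mag, Mobp, Cnp and Cldn11 numbered 7 of 377 E4 and 12 of 286 E3 members. A further 3 E3 members had 87, 89 and 86 UMIs of Apln, the gene of the peptide apelin, along with 23, 31 and 25 of Angpt2. No E4 member reached 20 Apln UMIs. Leaving out all of these cells, 36 genes were higher in members, 32 of them among the 52, and 115 were lower, 94 of them among the 151.

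E4 members were then set beside E3 members. Of 8093 genes with at least 50 UMIs in members of both libraries together, 361 (4.46%) were at least 1.5-fold higher in E4 and 205 (2.53%) at least 1.5-fold lower. The median log2 ratio over all genes was 0.06 in members and 0.05 in the other endothelial cells. The interval lay on 1 side of 0 for 242 of the 361 and for 139 of the 205. Without the cells named above, 287 genes were higher, 224 of them among the 361, and 167 lower, 134 of them among the 205.

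The genes furthest lower in E4 members rested on few E3 cells. Apln had 6.98 CPM in E4 and 134 CPM in E3 members, a log2 ratio of -4.26, and 98.1% of the E3 UMIs were in 5 cells. Ttr, the thyroid hormone carrier made by choroid plexus, had 414 CPM in E4 and 4196 CPM in E3 members, with 91.3% of the E3 UMIs in 4 cells. Hbb-bs, a haemoglobin chain, had 888 CPM in E4 and 3548 CPM in E3 members, with 98.3% of all haemoglobin UMIs of the E3 members in 6 cells. Without the cells rich in haemoglobin, Ttr, oligodendrocyte or Apln transcripts, Apln was at 0.62 and Ttr at 0.10, with intervals that include 0. Those cells were picked by their Apln and Ttr UMIs, among others. The members left out for Apln or Ttr were all in E3. These shifts thus follow from the choice of cells and are a description. Hbb-bs remained lower in E4, at -2.25 in members and at -2.08 in the other endothelial cells.

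The genes furthest higher in E4 members were mostly oligodendrocyte genes. Mag, a myelin glycoprotein, had 42.3 CPM in E4 and 13.97 CPM in E3 members, a log2 ratio of 1.60, and 5 cells held 84.3% of its E4 UMIs. Without the cells of both libraries rich in haemoglobin, Ttr, oligodendrocyte or Apln transcripts, Mag was at 0.42, with an interval of -1.26 to 2.32. Mag was among the genes that picked those cells, so its shift follows in part from the choice. Ermn, Tubb4a and Trf then changed sign, and Cnp (0.23) and Mobp (0.49) stayed above 0. Among these genes only Mobp had an interval that excluded 0, at 0.04 to 0.96. That of Cnp was -0.38 to 0.86. Few UMIs were left for Ermn (15 in E4, 13 in E3) and Tubb4a (15 and 16). In all, 6 E4 members held 65.6% of the UMIs of the 5 oligodendrocyte genes in E4 members, and 2 E3 members held 32.8% in E3. The immediate-early gene Fos kept its value. It had 55.8 CPM in E4 and 23.9 CPM in E3 members, a log2 ratio of 1.22, and 1.27 without all the cells left out. Fos lay in 53 E4 and 26 E3 members, with 65.1% and 54.2% of its UMIs in 5 cells, and its log2 ratio was 0.70 in the other endothelial cells.

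**Figure D5:**
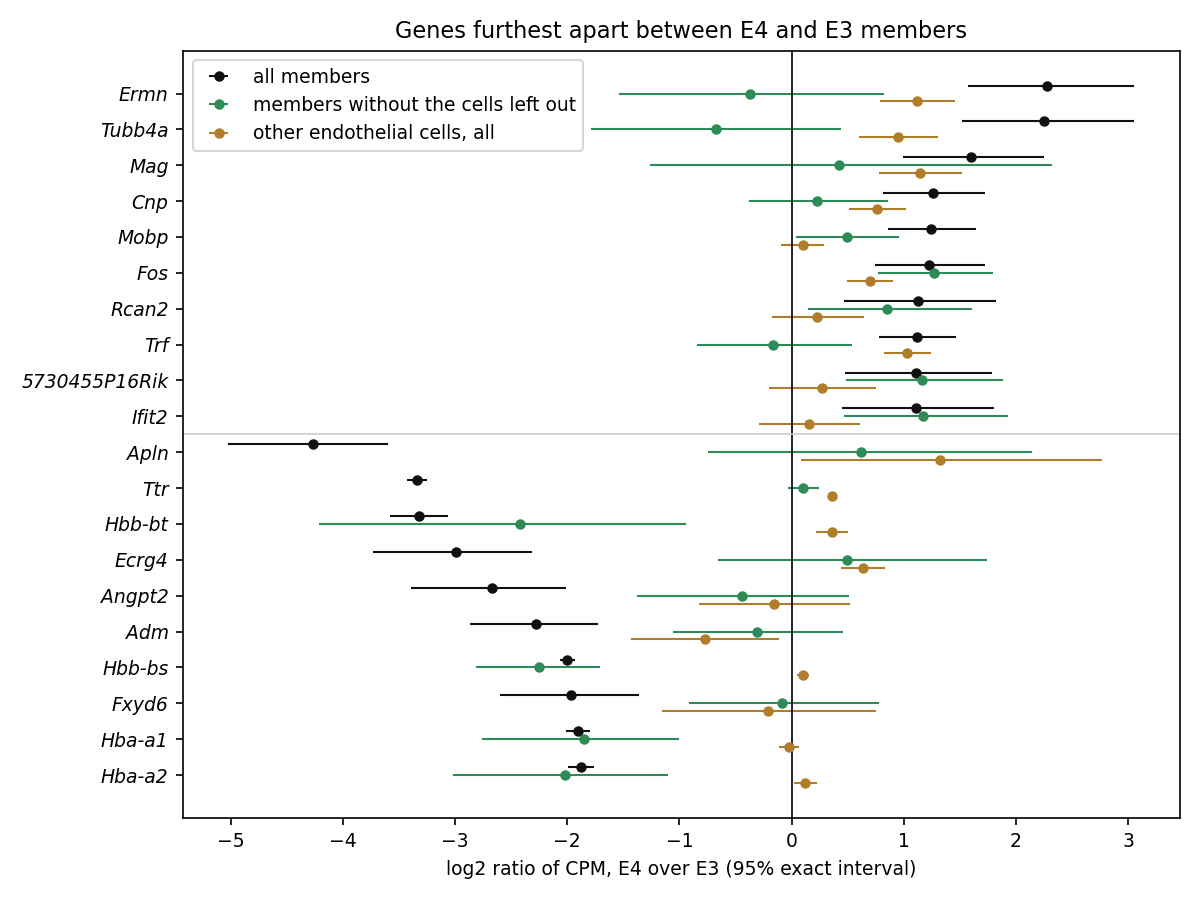
Log2 ratio of CPM, E4 over E3, for the 10 highest and 10 lowest genes in members, in members without the cells left out, and in the other endothelial cells, with exact 95% intervals that cover counting error. Apln, Ttr and Mag move to 0.62, 0.10 and 0.42 when 7 E4 and 15 E3 cells are left out, and Fos stays at 1.27. Apln, Ttr and Mag were among the genes that picked those cells, so their shifts follow from the choice.

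Nuclear genes of oxidative phosphorylation, the mitochondrial chain that makes ATP, leaned lower in E4 members. Of 77 measured genes, 66 were lower in E4, against 41.4% of all genes, with a median log2 ratio of -0.20. The subunit gene Atp5g1 of ATP synthase was the only one at least 1.5-fold lower, as 2.53% of all genes were. It had 153 CPM in E4 and 239 CPM in E3 members. Cox4i1 had 542 CPM in E4 and 639 CPM in E3, and Ndufa4 had 575 and 696 CPM. The list summed to 18007 CPM in E4 and 20955 CPM in E3 members.

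The difference was smaller without those cells that were rich in haemoglobin, Ttr, oligodendrocyte or Apln transcripts. The 4 E3 members with high Ttr held 8.94% of the list's UMIs in E3 members. Leaving out all the cells named above, 63 of 77 genes were lower in E4, the median was -0.12, and the sums were 18065 CPM in E4 and 19784 CPM in E3. No gene of the list was then at least 1.5-fold lower, and 1 was at least 1.5-fold higher. In the other endothelial cells the median was 0.06 with all cells and -0.07 without those cells. The 13 genes of the mitochondrial genome summed to 63111 CPM in E4 and 57424 CPM in E3 members, the opposite order.

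Glycolysis genes had no common direction. Of 15 measured genes, 10 were lower in E4 members, against 41.4% of all genes (median -0.14). Ldhb and Pfkp were at least 1.5-fold lower, as 2.53% of all genes were. Gapdh had 333 CPM in E4 and 400 CPM in E3 members. The glucose transporter gene Slc2a1, counted in the same list, was higher in E4, with 1963 CPM in E4 and 1501 CPM in E3 members, a log2 ratio of 0.39 (0.32 in the other endothelial cells). The sum of the list was therefore higher in E4, at 3734 CPM against 3441 CPM in E3, so sum and median differ in sign. Without the cells left out, 9 of 15 genes were higher, the median was 0.11, and no gene of the list passed the fold.

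Vein and adhesion genes differed in a few cases. Of 9 measured vein genes, 6 were higher in E4 members, against 58.6% of all genes (median 0.15), and Nr2f2, Icam1 and Lrg1 passed the fold, as 4.46% of all genes did, with Lrg1 in 1 cell of each library. Nr2f2 had a log2 ratio of 0.60 (95% interval 0.19 to 1.02) in members and 0.08 in the other endothelial cells. Icam1 had 33.1 CPM in E4 and 20.5 CPM in E3 members, and the E4 cell rich in Lrg1 held 18 of its 90 E4 UMIs. Among inflammation genes, Il6ra, the receptor for interleukin 6, was higher, with 65.8 CPM in E4 and 41.4 CPM in E3. Cebpd, a transcription factor of the acute phase, was lower, with 76.1 CPM in E4 and 130 CPM in E3, a log2 ratio of -0.77 and of -0.74 in the other endothelial cells.

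Barrier genes differed little between the genotypes. None of 26 barrier transporters and none of 12 junction genes passed the fold, with medians of 0.03 and 0.08. The drug exporter gene Abcb1a had 1333 CPM in E4 and 1307 CPM in E3 members. Of 19 genes of Wnt and beta-catenin signalling, 16 were higher in E4 members, where 58.6% of all genes were, with a median of 0.15 against 0.12 in the other endothelial cells. Among 19 interferon genes, Ifit2 had 27.9 CPM in E4 and 13.0 CPM in E3, and Ifit3 had 93.0 CPM in E4 and 56.4 CPM in E3.

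A technical signal ran through all endothelial cells. Gm42418, which overlaps ribosomal RNA, had 14058 CPM in E4 and 32384 CPM in E3 members, and its log2 ratio was -1.20 in members and in the other endothelial cells alike. Lars2, listed with it for overlap with ribosomal RNA, was lower in E4 by like amounts, at -1.31 in members and -1.40 in the other cells. What part this has in other ratios was not tested.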

How the data were processed

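The deposited files hold raw UMI counts per gene and barcode, which the authors made with Cell Ranger (6.1.1 for E4 and 6.1.2 for E3, per the file headers) on mm10; the annotation name is not given in the sources used here, and no normalization had been applied. Groups came from the sample labels. From these counts, 32285 genes were read, cells were classed by the rule of UMI limits given in the report, and counts were summed over the cells of a class and scaled to CPM. Log2 ratios have exact 95% binomial intervals, levels exact Poisson intervals and shares exact binomial intervals. A count of 0 was read as a floor of 3 UMIs. A gene was called at 1.5-fold, with at least 50 UMIs. Named genes were the 15 highest and 10 lowest called genes by the mean of both libraries (members against others), the 10 highest and 10 lowest with at least 100 UMIs and an interval on 1 side of 0 (E4 against E3), and, of each gene list, the 4 most abundant and those past the fold. The members and lists were chosen with earlier results of these data known. Genes named for Slc38a5 alone against Car5a alone, and that comparison itself, were chosen after their values were seen.

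Thinning drew 1000 UMIs per cell without replacement. No doublet caller was run. Some genes are not reported here and were left out of the lists and the named genes. The libraries shared 46 barcodes, carried by 2 E4 and 1 E3 members. Positions come from GENCODE vM21, which matched 32235 of the 32285 gene identifiers. The ratios and intervals were run on simulated independent counts, which leave out the clumping of transcripts in few cells, so coverage under such clumping was not tested. Tools were Python 3.11.15, numpy 2.4.6, pandas 2.3.3, scipy 1.17.1 and matplotlib 3.10.9. There were 11 alternatives planned and others added, and their effect is given in the closing section.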

Additional observations from a re-analysis of the deposited data

Results flagged for a closer look

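For 6 genes and 1 gene list, the E4 to E3 ratio ran opposite ways in members and in the other endothelial cells, each with its interval on 1 side of 0. The difference between the 2 groups of cells was not tested. Apln had a log2 ratio of -4.265 in members and 1.319 in the other endothelial cells. Ttr had -3.341 in members and 0.3562 in the others, and Ecrg4, another choroid plexus gene, had -2.992 and 0.6336. Of the haemoglobin chains, Hbb-bt had -3.317 in members and 0.3582 in the others, Hbb-bs had -1.999 and 0.1009, and Hba-a2 had -1.88 and 0.1214. Without the cells rich in haemoglobin, Ttr, oligodendrocyte or Apln transcripts, Hbb-bs was at -2.25 in members and -2.08 in the others, so both lay on the same side. In E3 members, 5 cells held 98.1% of the Apln, 91.4% of the Ttr, 92.7% of the Ecrg4, 98.2% of the Hbb-bt, 98.2% of the Hbb-bs and 97.2% of the Hba-a2 UMIs. The median of the oxidative phosphorylation list was -0.2026 in members and 0.0598 in the other endothelial cells. Without those rich cells, it was -0.12 in members and -0.07 in the others, so both lay on the same side.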

How the results depend on the processing

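No paired analysis was possible because the labels give no replicate numbers and there was 1 library per genotype. No library was left out. The alternatives that leave out cells, and those on the split by marker, were chosen after seeing the data. Thinning leaves fewer genes to test, 3060 of 8047 and 2404 of 8093.

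The main medians (mean of both libraries) were 0.81 for vein, 0.26 for capillary and -2.03 for artery genes. With at least 3 marker UMIs, members were 18.1% of E4 and 19.1% of E3 endothelial cells, the capillary median was 0.23 and the oxidative phosphorylation median -0.15. With Slc38a5 alone as marker, shares were 13.0% in E4 and 14.96% in E3, 105 genes were higher in members, 135 genes were lower in E4, the vein median was 1.40, the oxidative phosphorylation median -0.10 and Ttr reversed to 0.10. Under stricter limits on genes of other cell types, shares were 26.7% in E4 and 28.1% in E3, with 17 genes higher and 46 lower in members, 197 higher in E4, and medians of 0.27 for vein, 0.17 for capillary, -0.83 for artery and -0.14 for oxidative phosphorylation. With at least 2000 UMIs per cell the E4 share was 32.2%, and with at most 10% mitochondrial UMIs the capillary median was 0.23.

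Thinned to 1000 UMIs, 13 genes were higher and 17 lower in members, and 141 higher and 83 lower in E4. Of these, 2 of the 13, 11 of the 17, 9 of the 141 and 12 of the 83 were main calls. Thinning left 11 of the 52, 22 of the 151, 11 of the 361 and 15 of the 205 main calls testable. All of those kept their side. Medians were 0.40 for vein, 0.20 for capillary and -0.13 for oxidative phosphorylation. With Slc38a5 alone, 3 genes were higher and 6 lower than with Car5a alone. With membership read at 2000 UMIs, shares were 11.2% in E4 and 12.1% in E3, 261 genes were lower in members, 120 lower in E4, the capillary median was 0.22, and reversed values were -0.98 for Fxyd6, -0.43 for Trp53i11, -0.53 for Itga4 and -0.20 for Rtp3 in members against others. As a mean of cells, 34 genes were higher in members, with medians of 0.37 for vein, 0.18 for capillary and -0.12 for oxidative phosphorylation. With at least 200 UMIs per gene, 18 genes were higher and 36 lower in members, 43 higher and 26 lower in E4, and the artery median was -0.90. Against cells without zone markers, 28 genes were higher and 67 lower, with medians of 0.17 for capillary and -0.28 for artery.

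Without cells rich in haemoglobin, Ttr or oligodendrocyte transcripts, the capillary median was 0.19 and the oxidative phosphorylation median -0.13, and Trf (-0.43) and Ttr (0.12) reversed. Without the Apln cells too, these were 0.21 and -0.12, the glycolysis median was 0.11, and Trf (-0.16) and Ttr (0.10) reversed. The cause of each change was not tested beyond the cells left out. Without the cells with Lrg1, 25 genes were higher and 21 lower with Slc38a5 alone. Depth limits rare vein genes: 3 UMIs equal 8.27 CPM in the E3 members with Slc38a5 alone.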

Other observations

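Caveolae and vesicle transport, a list not described above, had 10 of 11 genes higher in E4 members, against 58.6% of all genes, with a median log2 ratio of 0.22 against 0.06 in the other endothelial cells and 0.06 over all genes. No gene of the list passed 1.5-fold, as 4.46% of all genes did. Without the cells rich in haemoglobin, Ttr, oligodendrocyte or Apln transcripts, 10 of 11 were again higher, with a median of 0.23. Of 88 cytosolic ribosomal protein genes, 55 were lower in E4 members, against 41.4% of all genes, with a median of -0.03, and 1 passed the fold. In the class I antigen presentation list, H2-Q7 had 14.0 CPM in E4 and 28.9 CPM in E3 members, a log2 ratio of -1.05 (95% interval -1.68 to -0.44), and -1.27 in the other endothelial cells.

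The 3 E3 members rich in Apln all carried both markers, with 2, 2 and 1 UMIs of Slc38a5 and 1, 11 and 4 of Car5a. They held 25679, 21625 and 11962 UMIs in all, and 32, 53 and 9 UMIs of Adm, the gene of adrenomedullin. Apln had 19 UMIs in all 377 E4 members.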
